A study of Mus musculus with 12 samples.

Results

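NIH-3T3 and MLg, mouse fibroblast lines of different origin, were compared while both were under SHHN, the recombinant amino-terminal signalling fragment of Sonic hedgehog. The comparison rests on 6 of the 12 RNA-seq libraries of the series, 3 per line, chosen by line and treatment as labelled. The other 6 libraries hold the same lines with vehicle and give the line difference without ligand. NIH-3T3 is an embryonic line from NIH/Swiss mice that was grown in 10% bovine calf serum, and MLg is a line from newborn lung of ddY mice that was grown in 10% FBS. For the experiment, all 4 groups were moved to DMEM with 0.5% FBS and kept there for 48 h with 1 µg/ml SHHN or with vehicle. Each origin is represented by 1 line, and strain, tissue, age and growth serum change with the line, so their parts in a line difference cannot be told apart. Whether the 3 libraries of a group came from separate cultures is not given, and p-values therefore measure only the spread among these libraries, which may be technical.

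Values are FPKM, fragments per length of transcript and number of mapped fragments, as deposited. Of 24346 genes with values, 11988 reached 0.5 FPKM in 3 or more of the 6 SHHN libraries and were tested. A line difference is NIH-3T3 minus MLg on the log2(FPKM + 0.5) scale, so it is positive where NIH-3T3 is higher, and it understates the fold change of genes with low FPKM. It was tested with limma across all genes, with Benjamini-Hochberg adjustment and a threshold of 0.05. Errors of FPKM are SD over the 3 libraries of a group and errors of line differences are standard errors (SE) of the fit.

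Hedgehog ligands bind the receptor Patched on the primary cilium and so release Smoothened, after which Gli transcription factors turn from repressors into activators and raise Gli1 and Ptch1 themselves. In the lung the ligand comes from the epithelium and is read by the mesenchyme beneath it, where the pathway is known for fibroblast growth and patterning. Foxd1 and Foxd2 encode forkhead transcription factors of mesenchyme. Foxd1 is known as a marker of stromal progenitors in kidney and lung.

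Under SHHN each line had a high level of one of these genes and a low level of the other. Foxd1 was at 93.4, 260.4 and 192 FPKM in the MLg SHHN libraries and at 0.0207, 0.0328 and 0.0612 FPKM in NIH-3T3. Foxd2 was at 63.2, 59.7 and 56.5 FPKM in the NIH-3T3 SHHN libraries and at 4.66, 11.6 and 8.76 FPKM in MLg. The libraries of the lines did not overlap for either gene, as was so for 61.7% of all genes tested. Foxd1 passed the filter through MLg alone, which fixes its direction and keeps its libraries apart, so neither is independent evidence. MLg replicate 1 was the lowest of its group for both genes. The line difference was −8.28 for Foxd1 (SE 0.29, adjusted p = 4.15e-11) and 2.85 for Foxd2 (SE 0.25, adjusted p = 5.44e-07). Without ligand, Foxd1 already stood apart, with 0.0246 ± 0.0213 FPKM in NIH-3T3 and 29.9 ± 9.18 FPKM in MLg, and the difference widened by −2.47 (SE 0.41, adjusted p = 0.00148). Foxd2 was at 5.58 ± 1.24 FPKM in NIH-3T3 control and 7.97 ± 1.31 FPKM in MLg control, a difference of −0.49 that did not pass (adjusted p = 0.125). Its line difference therefore came with SHHN, by 3.34 (SE 0.36, adjusted p = 4.58e-05). Without MLg SHHN replicate 1 in the fit, the control difference of Foxd2 passed in the opposite direction (adjusted p = 0.0356; range over the alternatives, here and below without the required 2-fold change, 0.0356 to 0.38).

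The stretches of 250 bases before the RefSeq start of these genes are shown because the lines differ in opposite directions at them, with the motif TATAA in capitals. The Foxd1 stretch lies at chr13:98353995-98354244 (GRCm38.p6, plus strand) and the Foxd2 stretch at chr4:114908899-114909148 (minus strand).
Foxd1: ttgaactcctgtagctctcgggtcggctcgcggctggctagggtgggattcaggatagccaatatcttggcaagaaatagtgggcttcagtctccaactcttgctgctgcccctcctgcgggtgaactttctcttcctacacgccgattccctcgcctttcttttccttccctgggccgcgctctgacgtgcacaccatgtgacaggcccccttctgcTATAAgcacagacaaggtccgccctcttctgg
Foxd2: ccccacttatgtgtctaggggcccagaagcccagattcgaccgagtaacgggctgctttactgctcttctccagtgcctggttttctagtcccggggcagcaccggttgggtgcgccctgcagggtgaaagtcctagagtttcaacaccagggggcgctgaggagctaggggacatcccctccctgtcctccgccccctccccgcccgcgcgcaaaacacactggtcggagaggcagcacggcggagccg
TATAA, searched on the gene's strand, occurs once in the Foxd1 stretch, 32 bases before the start, and not in the Foxd2 stretch, and 16.0% of 32851 such stretches in the RefSeq table hold it. The letters GACCACCCA, the core of the site that Gli factors bind, were searched on both strands and found in neither stretch, and 0.225% of all stretches hold them. The genes themselves span chr13:98354242-98359305 and chr4:114906282-114908873 in GENCODE M21 (GRCm38), and a promoter was found in the RefSeq table for 113 of the 176 genes named by rule.

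Libraries of the same line under SHHN correlated at 0.983 to 0.995 (Spearman, across genes, which are not independent replicates), and libraries of different lines at 0.882 to 0.892. Between 13401 and 14793 genes were above 0 per library of the series. NIH-3T3 control replicate 2 had the fewest such genes and the highest FPKM total and enters the control line difference directly and the test of the SHHN one only through the shared estimate of the spread. All 11 fibroblast markers passed the filter. Of 9 epithelial markers none did, with Epcam, Krt18, Cldn4 and Nkx2-1 at 0 in all 12 libraries. Adgre1 and Cd3e, among the 8 immune markers, of which 2 passed, were also at 0, and the immune markers summed to 1.88 to 2.64 FPKM in NIH-3T3 SHHN and 4.71 to 5.40 FPKM in MLg SHHN. Summed over 4 mesothelial markers, of which 2 passed, MLg SHHN libraries reached 55.4 to 64.5 FPKM and NIH-3T3 SHHN libraries 2.31 to 5.57 FPKM. Over 6 smooth muscle and pericyte markers, of which 3 passed, the sums were 294 to 321 FPKM and 93.9 to 179 FPKM. The endothelial sum over 7 markers, of which 2 passed, was 6.73 to 25.4 FPKM in NIH-3T3 SHHN and 5.78 to 6.53 FPKM in MLg SHHN. The part of these markers in the line differences below was not tested. In bulk RNA, fewer cells of a kind and less RNA per cell cannot be told apart.

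With the pathway active in both lines, 2668 genes were higher and 2988 lower in NIH-3T3, 47.2% of the genes tested (22.3% and 24.9%), and 988 and 1026 of these differed at least 2-fold (8.24% and 8.56%, 16.8% together). The median line difference over all genes was −0.04. Without ligand, 2902 of the same genes were higher and 3061 lower (24.2% and 25.5%, 49.7% together). The line difference itself changed with SHHN, by the test of that change, in 1595 genes (13.3%), upward in 894 (7.46%) and downward in 701 (5.85%). These results sort the genes into kinds. The line difference remained, called in the same direction with and without SHHN, in 3828 genes (31.9%), of which 1832 were higher and 1996 lower in NIH-3T3 and 1434 differed at least 2-fold both times. Among these, the difference was called wider with SHHN in 195 and narrower in 367.

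The line difference appeared with SHHN in 386 genes (3.22%), meaning that it was called with the ligand and not without it and that the change was called as well. Of these, 224 were higher and 162 lower in NIH-3T3, and 168 differed at least 2-fold. It ended in 499 genes (4.16%), which were called without the ligand, not with it, and with a called change. In 140 genes (1.17%) it turned, with calls in opposite directions, and 88 of these were higher in NIH-3T3 under SHHN. A further 1302 genes were called with SHHN alone but without a called change, so they are not counted as appearing. Counts that rest on the change moved most with single libraries. Without NIH-3T3 control replicate 2, 633 genes appeared and 750 ended, and without MLg SHHN replicate 3, 244 appeared and 331 ended. Without MLg control replicate 2, 311 ended. When a difference beyond 2-fold was required in the test, 463 genes were higher and 542 lower in NIH-3T3 under SHHN, and 34 appeared, 29 ended and 2 turned. Of the 138 genes named in the text and called under SHHN, 98 passed that requirement, and of 82 named genes with a called change, 33 did. Ptch1, Smo, Hhat, Hes1, Has2, Snai1, Ccnd1 and Cdkn1a were among those whose line difference under SHHN did not.

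**Figure D1:**
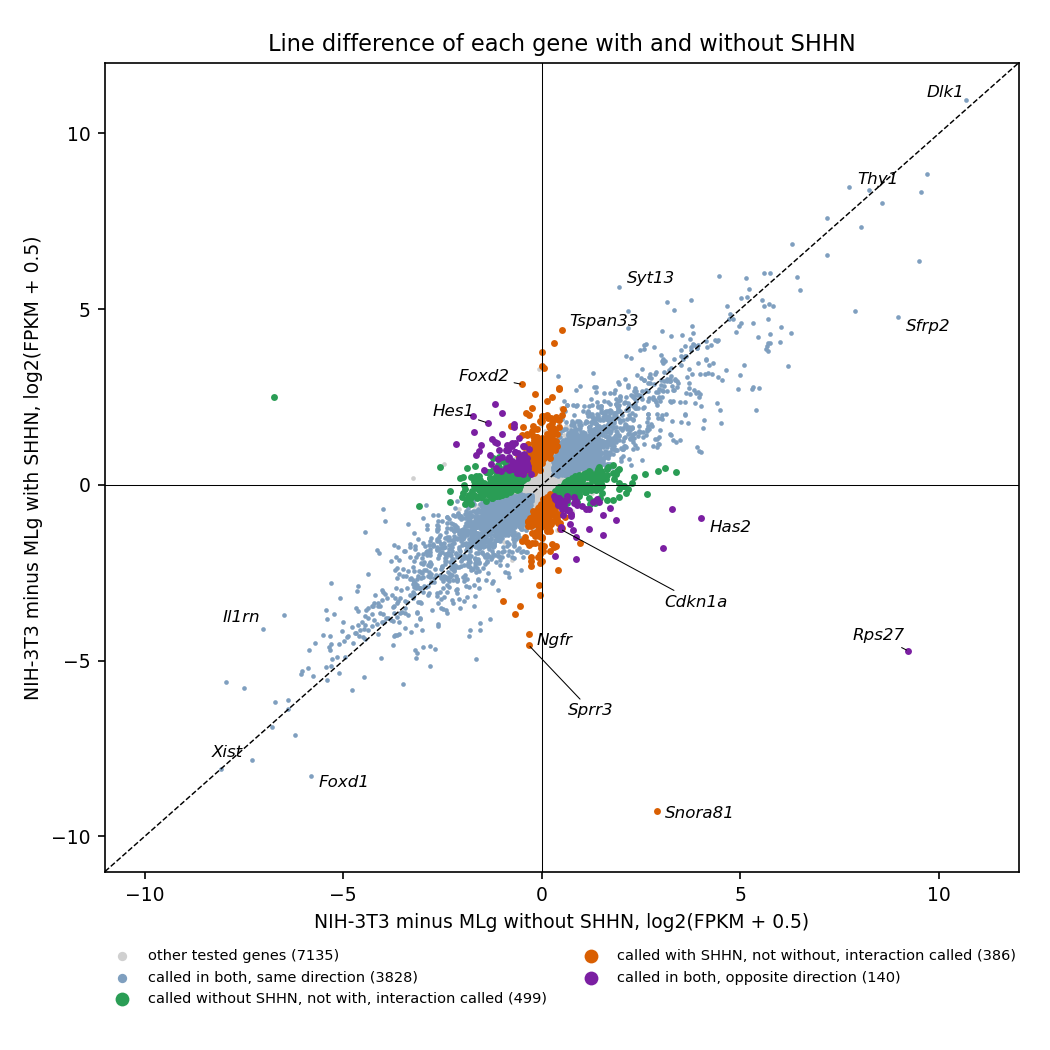
Each point is 1 of the 11988 tested genes, with the NIH-3T3 minus MLg difference in log2(FPKM + 0.5) without SHHN on the horizontal axis and with SHHN on the vertical axis, and the dashed line marks equal differences. Colours give the kinds counted in the text, and the genes that turned lie at the upper left and lower right.

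Among genes that receive the ligand, Ptch1, the receptor and feedback inhibitor, was lower in NIH-3T3, while Gli1, the usual readout of the pathway, was not called. Ptch1 was at 286, 249 and 244 FPKM in MLg SHHN and 139, 160.1 and 114 FPKM in NIH-3T3 SHHN. The libraries of the lines did not overlap, with MLg above. The line difference was −0.92 (SE 0.16, adjusted p = 0.00038). Without ligand it was low in both lines, at 2.39 ± 0.227 FPKM in NIH-3T3 and 3.21 ± 0.772 FPKM in MLg, and the change with SHHN did not pass (−0.58, adjusted p = 0.119). Ptch1 was not called without ligand (−0.34, adjusted p = 0.0986), but passed when MLg control replicate 2 was left out (adjusted p = 0.0119; range over the alternatives 0.0119 to 0.312).

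Smo, the signal transducer that Patched holds back, turned. It was at 325, 297 and 255 FPKM in NIH-3T3 SHHN and 161, 210.0 and 174 FPKM in MLg SHHN, a difference of 0.69 (SE 0.17, adjusted p = 0.00401). In the controls it was lower in NIH-3T3, with 122 ± 32.2 against 202 ± 11.9 FPKM (−0.76, adjusted p = 0.00194). Hhat, the acyltransferase that adds palmitate to Hedgehog ligands, turned as well. Its levels were 22.2, 22.5 and 20.7 FPKM in NIH-3T3 SHHN and 8.91, 7.63 and 9.15 FPKM in MLg SHHN, and 3.43 ± 0.397 and 8.81 ± 0.244 FPKM in the controls. The line difference of Hhat went from −1.25 to 1.30, a change of 2.55 (SE 0.17, adjusted p = 9.42e-07), while the MLg libraries of either state spanned similar levels. For both Smo and Hhat the NIH-3T3 libraries lay wholly above the MLg libraries under SHHN.

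Boc, a coreceptor that binds the ligand, was higher in NIH-3T3 in either state. It was at 31.5, 37.7 and 28.6 FPKM in NIH-3T3 SHHN and 4.19, 3.48 and 3.5 FPKM in MLg SHHN (2.96, SE 0.13, adjusted p = 4.56e-10), and the change of −0.19 did not pass (adjusted p = 0.555). No MLg library came near the NIH-3T3 libraries. The coreceptors Gas1 (0.27, adjusted p = 0.35) and Cdon (0.20, adjusted p = 0.376) were not called under SHHN. Disp1, which releases ligand from producing cells, was higher in NIH-3T3 by 0.43 (adjusted p = 0.0393). Leaving out NIH-3T3 SHHN replicate 2 or 3 lost the call (adjusted p = 0.193 and 0.087). So did leaving out MLg SHHN replicate 2 or 3 (adjusted p = 0.106 and 0.116). The call was also lost with the 6 SHHN libraries alone (adjusted p = 0.0618) and without a filter (adjusted p = 0.059). Of 16 genes of reception and release, 8 passed the filter, and 5 of these were higher and 1 lower in NIH-3T3 under SHHN, 75.0% against the background of 47.2%. Shh, Ihh, Dhh, Hhip, Lrp2 and Scube1 to Scube3 did not reach the filter.

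Gli1, the transcription factor that the pathway induces, was at 151, 149.8 and 139 FPKM in NIH-3T3 SHHN and 128, 118 and 113 FPKM in MLg SHHN. The ranges did not overlap, but the line difference of 0.29 did not pass in the 12-library fit (SE 0.16, adjusted p = 0.145). It did pass when the fit held only the 6 SHHN libraries (adjusted p = 0.0262) or left out MLg control replicate 1 (adjusted p = 0.0468; range over the alternatives 0.0262 to 0.326). Without ligand Gli1 was near 0 in both lines and lower in NIH-3T3, at 0.131 ± 0.0478 against 0.583 ± 0.28 FPKM (−0.75, adjusted p = 0.00113), and the change of 1.04 passed (adjusted p = 0.00678). After quantile normalization neither the control difference (adjusted p = 0.0893) nor the change (adjusted p = 0.0668) passed. Gli2, the main activator among Gli factors, was at 52.5, 57.9 and 43.4 FPKM in NIH-3T3 SHHN and 44.2, 44.1 and 37.7 FPKM in MLg SHHN, with overlapping libraries (0.28, adjusted p = 0.122). Without NIH-3T3 SHHN replicate 3 it passed (adjusted p = 0.0454; range over the alternatives 0.0454 to 0.372). Its control difference of −1.10 (adjusted p = 1.78e-05) ended with SHHN. Gli3, the main repressor, was not called under SHHN (0.26, adjusted p = 0.312).

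Downstream of Smo, 21 genes were tested, and 5 were higher and 1 lower in NIH-3T3, 28.6%, below the background share. The positive ones included Efcab7, a scaffold at the base of the cilium (1.08, SE 0.22), Mgrn1, a ubiquitin ligase that acts on Smo (0.62, SE 0.12), and Dyrk2, a kinase that acts on Gli factors (0.87, SE 0.24). Kif7, the kinesin that organizes the ciliary tip, was higher by 0.44 (adjusted p = 0.0139) and Gpr161, a receptor that keeps the pathway off, was higher by 0.83 (adjusted p = 0.0477). Sufu, the inhibitor that binds Gli factors, was the lower one (−0.35, adjusted p = 0.0238). The calls of these 3 were lost when single libraries were left out. That of Gpr161 was also lost with a pseudocount of 0.1 and without a filter (adjusted p = 0.0506 and 0.0932). Without NIH-3T3 SHHN replicate 2 the adjusted p of Kif7 was 0.0687, that of Gpr161 0.178 and that of Sufu 0.078. Without MLg SHHN replicate 1 they were 0.0542, 0.0779 and 0.0956. Sufu was also lost without NIH-3T3 SHHN replicate 3 (adjusted p = 0.0829). Gpr161 was also lost without NIH-3T3 SHHN replicate 1, without MLg SHHN replicates 2 and 3 in turn, without NIH-3T3 control replicate 3 and without each MLg control library (adjusted p up to 0.173). Over the list, 3 genes were higher and none lower without NIH-3T3 SHHN replicate 2, and none was lower without MLg SHHN replicate 1. The list's median line difference was 0.18, against −0.04 over all genes.

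**Figure D2:**
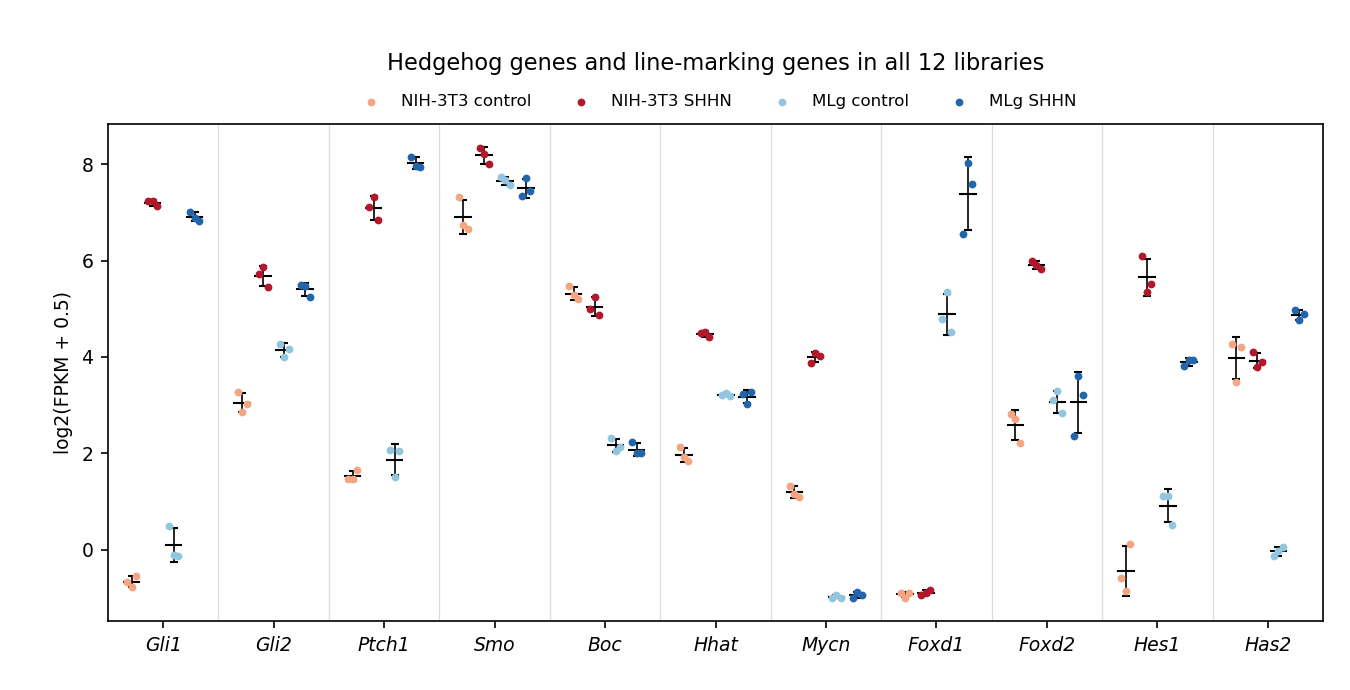
Points give log2(FPKM + 0.5) of each of the 12 libraries for 11 genes, with 4 groups of 3 libraries per gene, and black bars give the group mean and SD on that scale. Under SHHN the NIH-3T3 and MLg points of Gli1 lie close together, those of Ptch1 lie lower in NIH-3T3, and those of Foxd1 and Mycn lie far apart.

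Of 34 known or reported Hedgehog targets, 27 were tested, and 11 were higher and 12 lower in NIH-3T3 under SHHN, 85.2%, which is above the background share. The list was drawn up with earlier results of these data known, so its composition is no independent evidence. In addition, 4 of the 27 passed the filter through 1 line alone, which fixes their direction. Of these, 1 passed through NIH-3T3 (Mycn) and 3 through MLg (Nkx3-2, Bmp4 and Cdkn1c). Mycn, a growth-promoting transcription factor, was at 14.2, 16.3 and 15.8 FPKM in NIH-3T3 SHHN and at 0, 0.0425 and 0.0172 FPKM in MLg SHHN. It was close to 0 in MLg with and without ligand, and its line difference widened from 2.17 to 4.93 (change 2.77, adjusted p = 9.42e-07). Syt13, a synaptotagmin, was at 40.0, 66.2 and 59.2 FPKM in NIH-3T3 SHHN and 0.62, 0.589 and 0.578 FPKM in MLg SHHN, and widened from 1.93 to 5.63 (adjusted p of the change 1.36e-06). On the other side, Nkx3-2, a homeobox repressor of somite and gut mesenchyme, was at 6.92, 11.7 and 10.5 FPKM in MLg SHHN and 0.0324, 0.3 and 0.143 FPKM in NIH-3T3 SHHN. Mycn, Syt13 and Nkx3-2 had libraries that did not overlap between the lines in either state (61.7% of all genes with SHHN, 51.9% without). For Mycn and Nkx3-2 the filter fixes this under SHHN, so it is no independent evidence there. The difference of Mycn, Syt13 and Nkx3-2 widened with SHHN (adjusted p of the change of Nkx3-2 0.000147).

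Other targets were higher in MLg under both conditions. Bmp4, a secreted BMP ligand, was at 11.4, 11.8 and 11.4 FPKM in MLg SHHN and 0.0305, 0.0261 and 0.0273 FPKM in NIH-3T3 SHHN, a difference of −4.51 (SE 0.13) that was narrower than in the controls (−5.71). With a pseudocount of 0.1 the narrowing did not pass (adjusted p = 0.135). Hsd11b1, the enzyme that reactivates glucocorticoids, was at 58.5 ± 1.25 FPKM in MLg SHHN and 8.31 ± 0.407 FPKM in NIH-3T3 SHHN (−2.74, SE 0.20). Foxf1, a forkhead factor of lung mesenchyme, differed by −2.73 (SE 0.15) and Tbx2, a T-box factor of the same tissue, by −2.62 (SE 0.17), and neither changed beyond the threshold with SHHN (adjusted p = 0.466 and 0.629). On the NIH-3T3 side, Sox9, a regulator of cartilage, was higher in NIH-3T3, at 104 ± 9.18 against 34.3 ± 1.41 FPKM (1.58, SE 0.19). Osr1, a zinc-finger factor of lung and limb mesenchyme, was higher in NIH-3T3 by 1.42 (SE 0.18), and its relative Osr2 was lower (−1.29, SE 0.16), a difference that appeared with SHHN (change −1.43, adjusted p = 0.000867).

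Several targets turned. Has2, the main hyaluronan synthase of fibroblasts, was at 18.8, 10.6 and 17.8 FPKM in NIH-3T3 control and 0.411, 0.478 and 0.539 FPKM in MLg control. Under SHHN it was at 16.6, 13.3 and 14.3 FPKM in NIH-3T3 and 30.8, 26.7 and 29.3 FPKM in MLg. The NIH-3T3 libraries of the 2 states overlapped, whereas the MLg libraries lay below them without ligand and above them with it. The line difference went from 4.02 to −0.95 (adjusted p under SHHN 0.000698, of the change 1.1e-07). Hes1, a repressor best known as a Notch target, was at 67.5, 40.5 and 45.2 FPKM in NIH-3T3 SHHN and 13.5, 14.7 and 14.9 FPKM in MLg SHHN. It was higher in MLg without ligand, 1.42 ± 0.429 against 0.266 ± 0.285 FPKM, so the difference went from −1.36 to 1.76 (adjusted p of the change 8.4e-05). Snai1, a factor of epithelial-mesenchymal transition, was at 16.6, 12.5 and 11.5 FPKM in NIH-3T3 SHHN and 39, 40.7 and 31.3 FPKM in MLg SHHN. In the controls the order was the reverse, 32.8 ± 2.67 against 11.2 ± 2.48 FPKM, and the change was −2.96 (adjusted p = 5.35e-06). Ccnd1, the cyclin that drives entry into the cell cycle, was higher in NIH-3T3 under SHHN by 0.85 (adjusted p = 0.000405) and lower without it (−0.48, adjusted p = 0.0185). The control call of Ccnd1 was lost without NIH-3T3 control replicate 2 (adjusted p = 0.0552) or MLg control replicate 1 (adjusted p = 0.0678; range over the alternatives 0.00258 to 0.0678).

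Of 20 forkhead genes known from mesenchyme, 17 were tested, and 9 were higher and 5 lower in NIH-3T3 under SHHN, 82.4% against the background of 47.2%. Without ligand 3 were higher and 8 lower. Passing the filter through MLg alone fixed the direction of 2 of the 17, Foxd1 and Foxp2. Besides Foxd2, Foxc2, a regulator of vessel and paraxial mesenchyme, was higher in NIH-3T3 at 33.9 ± 3.59 against 6.89 ± 1.99 FPKM (2.25, SE 0.20). Foxl1, a Hedgehog target of gut mesenchyme, differed by 1.72 (SE 0.20). Lower in NIH-3T3 besides Foxd1 and Foxf1 were Foxp2, a transcriptional repressor that acts in lung development (−2.98, SE 0.14), and Foxs1, known from pericytes and neural crest (−2.23, SE 0.18). Foxp2 was at 0, 0.0116 and 0 FPKM in NIH-3T3 SHHN and 3.28, 3.37 and 3.78 FPKM in MLg SHHN. MLg alone thus held Foxp2 above 1 FPKM. Foxo1, a factor that insulin signalling keeps out of the nucleus, and Foxp4, a relative of Foxp2, each appeared as higher in NIH-3T3, by 0.67 and 0.74 (adjusted p = 0.00339 and 0.00134).

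The genes whose line difference appeared with SHHN included some that were near 0 in 3 of the 4 groups. Lypd2, a small protein of the Ly6 family, was listed at 0 in all 6 control libraries, at 10.8, 11.3 and 16.4 FPKM in NIH-3T3 SHHN and at 0.268, 0.256 and 0.964 FPKM in MLg SHHN. Ucma, a secreted protein of cartilage, was at 5.29, 10.1 and 10.7 FPKM in NIH-3T3 SHHN and 0.108, 0 and 0 FPKM in MLg SHHN. For both genes the NIH-3T3 SHHN libraries lay wholly above every other library. Their line differences under SHHN were 3.79 and 4.05 (adjusted p = 1.02e-08 and 5.23e-09), and the changes were 3.79 and 3.74. Ucma, like Tspan33 below, passed the filter through NIH-3T3 alone, which fixes its direction under SHHN. Tspan33, a tetraspanin, reached 19.2, 8.34 and 9.58 FPKM in NIH-3T3 SHHN and 0.0688 ± 0.0413 FPKM in MLg SHHN (4.41, SE 0.25). Its control difference of 0.50 did not pass (adjusted p = 0.109), but did without NIH-3T3 SHHN replicate 1 (adjusted p = 0.0165), after quantile normalization (adjusted p = 0.0161) and with a pseudocount of 0.1 (adjusted p = 0.0161; range over the alternatives 0.0161 to 0.285).

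Among genes with higher levels, Slc6a6, the taurine transporter, was at 241, 441 and 397 FPKM in NIH-3T3 SHHN and 89.6, 83.6 and 78.9 FPKM in MLg SHHN, a difference of 2.05 (SE 0.19). Its control difference of −0.40 did not pass, and without NIH-3T3 SHHN replicate 1 it passed (adjusted p = 0.0226; range over the alternatives 0.0226 to 0.291). Antxr1, an anthrax toxin receptor that binds matrix, was at 50.5, 171 and 139.7 FPKM in NIH-3T3 SHHN and 22.4, 24.3 and 22.4 FPKM in MLg SHHN. NIH-3T3 replicate 1 was the lowest of its group for both genes, and the groups still did not overlap. The Antxr1 difference under SHHN was 2.19 (SE 0.32, adjusted p = 7.11e-05) against −0.26 in the controls.

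Other line differences appeared with MLg as the higher line. Ngfr, the low-affinity neurotrophin receptor, was at 19.1, 14.5 and 15.7 FPKM in MLg SHHN and 0.191, 0.44 and 0.575 FPKM in NIH-3T3 SHHN, and at 0.15 ± 0.104 and 0.0118 ± 0.0204 FPKM in the controls. Sprr3, a small proline-rich protein of keratinizing epithelium, was at 13.5, 12.5 and 11.4 FPKM in MLg SHHN and 0, 0 and 0.165 FPKM in NIH-3T3 SHHN. Both were near 0 in either line without ligand, and the epithelial marker sums beside Sprr3 were at most 0.440 FPKM in MLg SHHN. Their line differences were −4.25 and −4.56 (adjusted p = 2.82e-10 and 9.09e-11), and the changes were −3.91 and −4.22. Sprr3 passed the filter through MLg alone, which fixes its direction under SHHN. The control difference of Ngfr passed with a pseudocount of 0.1 (adjusted p = 0.0205) and that of Sprr3 without MLg control replicate 1 (adjusted p = 0.0284), with ranges over the alternatives of 0.0205 to 0.475 and 0.0284 to 0.408. Tnc, the matrix glycoprotein tenascin C, was at 40.6, 35.5 and 33.9 FPKM in MLg SHHN and 5.87, 2.46 and 1.53 FPKM in NIH-3T3 SHHN, while the control groups lay at 16.3 ± 1.52 and 11.1 ± 1.7 FPKM. C3, the central complement component, was at 25.6, 23.3 and 21.2 FPKM in MLg SHHN and 0.674, 2.07 and 1.68 FPKM in NIH-3T3 SHHN, and Fst, the activin antagonist follistatin, at 8.28, 8.8 and 9.54 FPKM in MLg SHHN and 1.14, 1.46 and 1.11 FPKM in NIH-3T3 SHHN. Tnc, C3 and Fst had no overlapping libraries under SHHN, with line differences of −3.46, −3.67 and −2.44. Their control differences passed when single libraries were left out: Tnc without NIH-3T3 SHHN replicate 1 (adjusted p = 0.0137), C3 without MLg control replicate 2 (adjusted p = 0.0364) or NIH-3T3 SHHN replicate 1 (adjusted p = 0.0297), and Fst without NIH-3T3 control replicate 1 (adjusted p = 0.00834). Over the alternatives these ranged over 0.0137 to 0.272 for Tnc, 0.0297 to 0.32 for C3 and 0.00834 to 0.349 for Fst, and C3 also passed with a pseudocount of 1 (adjusted p = 0.0472).

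Outside the Hedgehog targets, genes that turned included ion channels and an adhesion protein. Lrrc8d, a subunit of volume-regulated anion channels, was at 13.5, 14.5 and 13.2 FPKM in NIH-3T3 SHHN and 3.62, 2.94 and 2.9 FPKM in MLg SHHN, and went from −1.74 to 1.97. Cacna1g, a T-type calcium channel, was at 1.94, 2.23 and 1.77 FPKM in NIH-3T3 SHHN and 3.94, 3.14 and 3.37 FPKM in MLg SHHN, and went from 3.27 to −0.68. Lrrc8d thus became the higher one in NIH-3T3 and Cacna1g the lower one. Igsf9, an immunoglobulin-family adhesion protein, reached 2.04 under SHHN (change 3.03), and Sertad4, a transcriptional cofactor, went from −2.17 to 1.16. The changes of these 4 genes had adjusted p of 3.87e-06, 6e-08, 5.52e-06 and 1e-07. Rps27, a ribosomal protein gene with many near-identical copies, was at 187, 199 and 85.2 FPKM in MLg SHHN, 5.59, 4.2 and 5.54 FPKM in NIH-3T3 SHHN and 1619, 7184 and 4576 FPKM in NIH-3T3 control. Reads of its copies can be assigned to either, so these values are uncertain. The same holds for Snora81, a small nucleolar RNA, for which FPKM divides by a very short length, and which was at 0 in all NIH-3T3 SHHN libraries, at 214, 372 and 379.9 FPKM in MLg SHHN and at 0, 436 and 458 FPKM in NIH-3T3 control. Its line difference of −9.29 (adjusted p = 0.0114) was lost with robust variances (adjusted p = 0.0545; range over the alternatives 6.19e-09 to 0.0545) and with the required 2-fold change (adjusted p = 0.0603).

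For several line differences that ended with SHHN, NIH-3T3 lay far from MLg without ligand and at its level with it. Unc5b, a netrin receptor, was at 26.8, 16.4 and 12.6 FPKM in NIH-3T3 SHHN and 16.4, 16 and 13.5 FPKM in MLg SHHN, after 3.07 ± 0.524 and 13.7 ± 0.968 FPKM in the controls. Pappa, a protease of IGF-binding proteins, was at 2.07, 4.92 and 2.93 FPKM in NIH-3T3 SHHN and 2.12, 2.19 and 2.09 FPKM in MLg SHHN, after 20.3 ± 6.33 and 1.87 ± 0.468 FPKM. NIH-3T3 was thus below MLg for Unc5b and above it for Pappa without ligand, and the libraries of the lines overlapped for each under SHHN. The line difference of Unc5b under SHHN was 0.21 (change 2.21), and it went from 3.10 to 0.46 for Pappa (adjusted p of the changes 0.00034 and 0.000524). Ccl5, a chemokine, went from 2.65 to −0.25, and Lacc1, an enzyme of purine metabolism in macrophages, from 2.11 to −0.24. Rnf217, a ubiquitin ligase, went from −1.88 to 0.49 and Fam198b, a Golgi protein, from −2.31 to −0.19. None of these 6 passed under SHHN (adjusted p = 0.437, 0.176, 0.641, 0.282, 0.34 and 0.576).

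Of the genes with the widest line differences under SHHN, those below also differed without it. Dlk1, an imprinted Notch-like protein that holds back fat cell formation, was at 1709, 1637 and 1886 FPKM in NIH-3T3 SHHN and 0.754, 0.241 and 0.241 FPKM in MLg SHHN (10.95, SE 0.20, adjusted p = 8.92e-14). Thy1, the surface antigen CD90 by which lung fibroblasts are often divided, was at 167, 186 and 204 FPKM in NIH-3T3 SHHN and 0.0357, 0.0353 and 0 FPKM in MLg SHHN (8.47, SE 0.12). Both genes were at or near 0 in every MLg library, so Thy1, one of the fibroblast markers above, was missing from MLg. Crabp1, a retinoic acid binding protein (8.83), Efemp1, the matrix protein fibulin 3 (8.03), Cd34, a sialomucin of progenitor and stromal cells (7.34), and Agtr2, an angiotensin receptor (6.37), were also among the 12 highest line differences named by rule. Agtr2 was at 187 ± 42.8 FPKM with SHHN and 621 ± 165 FPKM without it in NIH-3T3, and its line difference narrowed (change −3.11, adjusted p = 1.1e-05).

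On the MLg side, Plac8, a small cysteine-rich protein, was at 195, 253 and 213 FPKM in MLg SHHN and 0.166, 0.153 and 0.709 FPKM in NIH-3T3 SHHN (−8.09, SE 0.25, adjusted p = 1.47e-11). Loxl2, an enzyme that crosslinks collagen, was at 92.5, 88.9 and 85.7 FPKM in MLg SHHN and 0.0846, 0.145 and 0.196 FPKM in NIH-3T3 SHHN (−7.13). Tgm2, a transglutaminase that crosslinks matrix proteins, was at 179, 161 and 137 FPKM in MLg SHHN and 2.02, 3.04 and 2.9 FPKM in NIH-3T3 SHHN (−5.67). The rule that named these 3 genes required libraries that do not overlap. The Tgm2 difference had widened from −3.50 (change −2.18, adjusted p = 0.000117). Npy1r, a receptor of neuropeptide Y (−6.38), Lbp, which binds bacterial lipopolysaccharide (−5.83), and Htra1, a secreted serine protease (−5.77), were also among the 12 lowest line differences named by rule. Htra1 was at 40.7 ± 6.23 FPKM in MLg SHHN and 189.9 ± 25.3 FPKM in MLg control, and its difference narrowed by 1.74 (adjusted p = 0.000407).

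Hox genes, which record position along the body axis, mostly differed between the lines in both states. Of 39 genes, 28 were tested, and 9 were higher and 17 lower in NIH-3T3 under SHHN, 92.9%, with 25 line differences that remained, against 31.9% of all genes. Of the 28, 17 passed the filter through the libraries of 1 line alone, which fixes their direction: all 8 of the Hoxb cluster, 4 of the Hoxc cluster and 1 of the Hoxa cluster through MLg and all 4 of the Hoxd cluster through NIH-3T3. All 8 tested genes of the Hoxb cluster were lower in NIH-3T3 (median −3.77) and all 4 tested genes of the Hoxd cluster higher (median 4.49). Hoxb9 was at 0.195, 0.168 and 0.0967 FPKM in NIH-3T3 SHHN and 22.8, 26.4 and 26.3 FPKM in MLg SHHN. Hoxd8 was at 42, 24.7 and 30.9 FPKM in NIH-3T3 SHHN and listed at 0 in all MLg SHHN libraries. Above 1 FPKM, Hoxb9 was thus found in MLg alone and Hoxd8 in NIH-3T3 alone, with line differences of −5.30 (SE 0.13) and 6.01 (SE 0.16). Of 7 tested Hoxc genes 6 were lower in NIH-3T3, led by Hoxc8 (−5.15, SE 0.13). In the Hoxa cluster, Hoxa2, Hoxa3, Hoxa5 and Hoxa6 were higher and Hoxa7, Hoxa9 and Hoxa10 lower, names given after their values were seen. The call of Hoxa7 was lost without NIH-3T3 SHHN replicate 1 (adjusted p = 0.0949) and without MLg SHHN replicate 2 (adjusted p = 0.0931). Hoxa6, with an adjusted p of 0.048, was lost in 9 alternatives besides the required 2-fold change. Among these were a replicate block (adjusted p = 0.0592) and leaving out each of NIH-3T3 SHHN replicates 2 and 3, MLg SHHN replicates 2 and 3, NIH-3T3 control replicate 1 and MLg control replicate 3 (range over the alternatives 0.0114 to 0.21). The change with SHHN was called upward for 6 of the 8 Hoxb genes, towards a smaller difference, beside 7.46% of all genes. It was called upward for 1 of the 9 Hoxa genes, where it was called in 2, and for 0 of the 7 Hoxc and 4 Hoxd genes. All 8 Hoxb genes were near 0 in NIH-3T3 in both states, with group means of at most 0.213 FPKM. Their smaller difference thus goes with lower means in MLg under SHHN (Hoxb9 25.2 FPKM, against 46.8 FPKM in control). With a pseudocount of 0.1 the Hoxb9 change did not pass (adjusted p = 0.157). Because the filter took these genes through MLg, their count is no independent evidence.

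**Figure D3:**
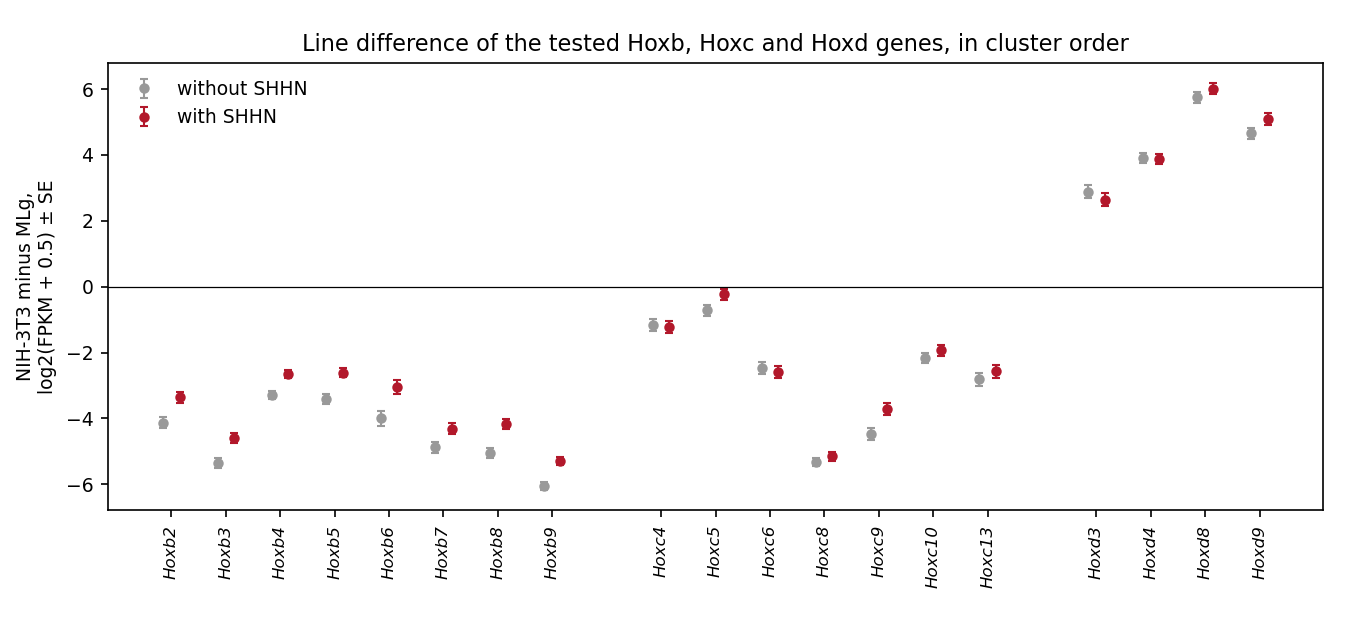
NIH-3T3 minus MLg differences in log2(FPKM + 0.5) of the 8 Hoxb, 7 Hoxc and 4 Hoxd genes tested, in order along each cluster, without SHHN in grey and with SHHN in red, with SE. Hoxb and Hoxc points lie below 0 and Hoxd points above, in both states.

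Other transcription factors of mesenchyme split between the lines. Of 41 tested, 17 were higher and 16 lower in NIH-3T3 (80.5%), and 27 line differences remained, where 31.9% of all genes did. The filter fixed the direction of 8 of the 41, 3 passing it through NIH-3T3 alone and 5 through MLg alone. Msx1, a homeobox factor of limb and craniofacial mesenchyme, was at 8.92, 11.4 and 10.8 FPKM in MLg SHHN and 0.0297, 0.0237 and 0 FPKM in NIH-3T3 SHHN (−4.39, SE 0.14). Pax3, a paired-box factor of myogenic and neural crest cells, was lower as well (−3.68). Tbx4 and Tbx5, T-box factors of lung and limb mesenchyme, were named after their values were seen, since they went opposite ways, Tbx4 by 2.62 and Tbx5 by −3.00 (SE 0.14 and 0.13).

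Matrix genes differed in both directions. Of 23 tested collagen chains, 8 were higher and 10 lower in NIH-3T3 (78.3%), and Col1a1 and Col1a2, the chains of type I collagen, named after their values were seen, were not called (adjusted p = 0.544 and 0.148). Col15a1, a chain of basement membranes, was at 17.4, 29.8 and 24.2 FPKM in NIH-3T3 SHHN and 0.0726, 0.153 and 0.13 FPKM in MLg SHHN. Col12a1, a fibril-associated chain, was at 0.718, 1.08 and 0.904 FPKM in NIH-3T3 SHHN and 45, 46.2 and 38.5 FPKM in MLg SHHN, and its difference widened from −1.66 to −4.97 (adjusted p of the change 4.35e-06). Of 44 matrix glycoproteins and proteoglycans, 11 were higher and 20 lower (70.5%). Postn, the matricellular protein periostin, was at 350.0, 409 and 413 FPKM in NIH-3T3 SHHN and 20.9, 18.7 and 18.5 FPKM in MLg SHHN (4.30). Thbs1, thrombospondin 1, was at 8.54, 7.8 and 6.27 FPKM in NIH-3T3 SHHN and 201, 211 and 165 FPKM in MLg SHHN (−4.59). Postn and Thbs1 lay on opposite sides with no overlap of libraries.

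Of 28 matrix proteases and inhibitors, 6 were higher and 13 lower in NIH-3T3 under SHHN (67.9%). Ctsk, the collagen-degrading cathepsin K, was higher by 4.31 (SE 0.20) and Adamts15, a proteoglycan-degrading protease, by 2.16 (SE 0.14), while Adamts2, which trims procollagen, was lower (−1.91, SE 0.15). Of 20 integrin and laminin chains, 7 were higher and 10 lower (85.0%), with 15 differences that remained. The filter fixed the direction of 4 of the 20, 1 passing it through NIH-3T3 alone and 3 through MLg alone. Lama5, a laminin chain of lung basement membrane, was at 37.3, 38.6 and 30.7 FPKM in MLg SHHN and 0.214, 0.419 and 0.344 FPKM in NIH-3T3 SHHN (−5.45). Itga11, a collagen-binding integrin chain, was also lower in NIH-3T3 (−2.67), and Lamb1 higher (1.56).

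Genes of the contractile apparatus were lower in NIH-3T3 with and without ligand. Of 18 tested, 2 were higher and 14 lower under SHHN (88.9%), with a median of −1.51, and 3 were higher and 15 lower without it. Mylk, the myosin light chain kinase, was at 1.09, 0.608 and 0.513 FPKM in NIH-3T3 SHHN and 24.3, 23.7 and 19.4 FPKM in MLg SHHN. Myl9, a regulatory light chain, was at 20.8, 16.9 and 16.8 FPKM in NIH-3T3 SHHN and 176, 153 and 141 FPKM in MLg SHHN. Their differences were −4.24 and −3.07, and that of Lmod1, which nucleates actin in smooth muscle, was −2.29. Acta2, smooth muscle actin and the usual mark of myofibroblasts, differed by −1.94 (SE 0.22, adjusted p = 5.39e-06). The higher ones were Csrp2 and Cnn3, at 1.65 and 0.70, and these and Acta2 were named after their values were seen. The sums of smooth muscle and pericyte markers, given above, moved the same way, and their part was not tested. Myh11, Des, Cnn1 and Acta2 belong to both lists, so these sums are no separate evidence.

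Cytokines and other NF-kB targets were mostly lower in NIH-3T3 under SHHN. Of 28 tested, 18 were lower and 7 higher (89.3%), with a median of −1.14, against 14 lower and 7 higher without ligand and a median of −0.51. Ccl2, the chemokine of monocytes, was at 2.8, 0.99 and 1.19 FPKM in NIH-3T3 SHHN and 75.4, 67.3 and 71.4 FPKM in MLg SHHN, and its difference widened from −2.81 to −5.15 (change −2.34, adjusted p = 0.000353). Ccl7, a related chemokine, widened from −1.55 to −4.13 (adjusted p of the change 0.000139). Il1rn, the antagonist of the interleukin 1 receptor, was at 0, 0 and 0.0428 FPKM in NIH-3T3 SHHN and 8.29, 9.01 and 7.89 FPKM in MLg SHHN, and narrowed from −7.03 to −4.11 (adjusted p of the change 3.83e-07). Of the 28, 8 passed the filter through 1 line alone, 7 of them through MLg. Without each of NIH-3T3 SHHN replicate 3 and MLg SHHN replicates 1, 2 and 3, 4 genes of the list were higher. The immune marker sums were also lower in NIH-3T3, and their part was not tested. Over the list the change was called downward in 10 genes and upward in 3, where 5.85% and 7.46% of all genes were called. Tlr2 and Tlr4, receptors of bacterial products, were among the higher ones (2.12 and 1.25), named after their values were seen.

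Of 25 interferon-stimulated genes, 19 were lower and 1 higher in NIH-3T3 under SHHN (80.0%, median −1.06), and 17 and 1 without it. Of the 25, 7 passed the filter through MLg alone, and the immune marker sums lay the same way, whose part was not tested. Ddx58, the RNA sensor RIG-I, was at 3.35, 3.44 and 3.94 FPKM in NIH-3T3 SHHN and 16.2, 17.3 and 16.2 FPKM in MLg SHHN (−2.07, SE 0.13). Bst2, the virus-tethering protein tetherin, was at 13.5, 11.6 and 14.2 FPKM in NIH-3T3 SHHN and 82.2, 87 and 91.8 FPKM in MLg SHHN (−2.69, SE 0.21). Oasl2, of the oligoadenylate synthetase family, was lower as well (−1.87), and the higher one was Isg15, a ubiquitin-like modifier (1.59, SE 0.23), named after its value was seen. Of 16 class I antigen presentation genes, 2 were higher and 6 lower, near the background share. Erap1, which trims peptides, differed by −1.63 (SE 0.15). H2-T23 and H2-T22 were lower (−2.70 and −3.91), but reads of these class I genes can be shared with close copies and, between strains, with alleles that differ from the reference, so their values are uncertain.

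Cell cycle genes were mostly lower in NIH-3T3 while both lines were under SHHN, where 24.9% of all genes were lower and 22.3% higher. The differences were small. When a difference beyond 2-fold was required, 0 replication genes were lower in place of 20. Likewise, 0 mitotic genes were lower in place of 16 and 0 higher in place of 1. Of 28 genes of the G1/S transition and replication, 20 were lower and none higher (71.4%, median −0.61), and without ligand 19 were lower and 2 higher (median −0.58). Mcm6, a subunit of the replicative helicase, was at 56.1, 51.3 and 54.7 FPKM in NIH-3T3 SHHN and 111, 101 and 106 FPKM in MLg SHHN (−0.97, SE 0.10). Cdc6, which loads the helicase (−1.10), and Prim1, the primase (−1.08), differed by similar amounts. Of 25 genes of G2 and mitosis, 16 were lower and 1 higher (68.0%, median −0.60), while without ligand 23 were lower and 1 higher (median −1.30). The line difference of the mitotic genes changed upward in 13 and downward in 1, where 7.46% and 5.85% of all genes did. Birc5, the mitotic regulator survivin, was at 29.4, 28.8 and 38.1 FPKM in NIH-3T3 SHHN and 57.9, 48.7 and 64.1 FPKM in MLg SHHN (−0.82, SE 0.15). Cdc20, the activator of the anaphase-promoting complex, was the higher one, at 63.5, 67.9 and 75 FPKM in NIH-3T3 SHHN and 33.8, 26.3 and 36.7 FPKM in MLg SHHN. The Cdc20 difference appeared with SHHN, at 1.09 (SE 0.14) after −0.21 (adjusted p of the change 0.000853).

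Among cyclins, kinases and inhibitors of the cell cycle, 4 of 18 were higher and 10 lower in NIH-3T3 under SHHN (77.8%). Cdkn1a, the inhibitor p21, turned: it was at 22.1, 21 and 23.8 FPKM in NIH-3T3 SHHN and 61.5, 48.1 and 53.7 FPKM in MLg SHHN, after 24.1 ± 1.5 and 17.3 ± 0.762 FPKM in the controls. The NIH-3T3 libraries of the 2 states overlapped and the MLg SHHN libraries lay wholly above them, with a change of −1.73 (SE 0.16, adjusted p = 1.21e-05). Cdkn1c, the imprinted inhibitor p57, was at 0.0278, 0.0231 and 0.152 FPKM in NIH-3T3 SHHN and 5.49, 6.69 and 4.94 FPKM in MLg SHHN (−3.45, SE 0.17).

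Secreted signals divided by family member. Of 20 Wnt-related genes, 8 were higher and 6 lower (70.0%). The filter fixed the direction of 5 of the 20, 3 passing it through NIH-3T3 alone and 2 through MLg alone. Sfrp2, a secreted Wnt modulator, was at 9.04, 18.4 and 16.7 FPKM in NIH-3T3 SHHN and near 0 in MLg SHHN, and its difference narrowed from 8.98 to 4.78 (adjusted p of the change 1.44e-06). Wnt10a, a ligand (−3.99), and Lef1, a transcription factor of the pathway (−2.11), were lower in NIH-3T3. Of 32 genes of BMP and TGF-beta signalling, 10 were higher and 13 lower (71.9%). Passing the filter through MLg alone fixed the direction of 5 of the 32. Grem1, a BMP antagonist, was at 24.3, 28.4 and 25.2 FPKM in MLg SHHN and 0, 0.0356 and 0.0777 FPKM in NIH-3T3 SHHN (−5.62), after 149 ± 48 FPKM in MLg control, so that ligand Bmp4 and antagonist Grem1 were both on the MLg side. Bmp3, a BMP that opposes other members, was also lower in NIH-3T3 (−3.19).

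Of 41 genes of growth factors and their receptors, 17 were higher and 18 lower in NIH-3T3 (85.4% against the background of 47.2%), and 6 appeared with SHHN, where 3.22% of all genes did. The filter fixed the direction of 6 of the 41, 2 passing it through NIH-3T3 alone and 4 through MLg alone. Fgfr1, a receptor of fibroblast growth factors, was at 153, 176 and 164 FPKM in NIH-3T3 SHHN and 32.8, 37.4 and 32.2 FPKM in MLg SHHN (2.25, SE 0.11), wider than the 1.41 of the controls (adjusted p of the change 0.00292). Vegfc, a lymphatic growth factor, was at 0.809, 0.459 and 0.919 FPKM in NIH-3T3 SHHN and 11.3, 15.4 and 13.6 FPKM in MLg SHHN (−3.51, SE 0.19). Of 9 Notch-related genes, 4 were higher and 3 lower (77.8%). Notch3, the receptor known from mural cells, was at 0.31, 0.255 and 0.252 FPKM in NIH-3T3 SHHN and 37.3, 36.5 and 32.7 FPKM in MLg SHHN (−5.54, SE 0.13), and Rfng, a glycosyltransferase that modifies Notch, was lower (−1.11). Notch3 and Rfng did not change beyond the threshold with SHHN (adjusted p = 0.691 and 0.702), and Hes1 had turned. Over the list the change was called upward in 3 genes and downward in 1, where 7.46% and 5.85% of all genes were called. The filter was passed through MLg alone by 2 of the 9, which fixes their direction.

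Of 18 genes that handle retinoic acid and glucocorticoids, 8 were higher and 7 lower (83.3%). Besides Crabp1, Cyp26b1, which breaks down retinoic acid, was higher in NIH-3T3 at 15.2, 18.6 and 16.9 against 1.81, 1.74 and 1.5 FPKM (2.99). Tsc22d3, the glucocorticoid target GILZ, was at 35.8, 35.8 and 44.1 FPKM in NIH-3T3 SHHN and 8.49, 10.3 and 11.7 FPKM in MLg SHHN, and widened from 0.51 to 1.88 (adjusted p of the change 0.000293). Of 22 imprinted genes, 13 were higher and 5 lower in NIH-3T3 (81.8%), with a median of 1.56, and 18 line differences remained. The filter fixed the direction of 7 of the 22, 4 passing it through NIH-3T3 alone and 3 through MLg alone. Meg3 and Rian, non-coding RNAs of the domain that holds Dlk1, were higher by 8.33 and 6.52. Sgce, a paternally expressed sarcoglycan, was at 35.4, 37 and 37.7 FPKM in MLg SHHN and 0, 0 and 0.0411 FPKM in NIH-3T3 SHHN. Among 23 surface markers used to divide fibroblasts, 10 were higher and 9 lower (82.6%), with Thy1, Cd24a (6.85) and Cd34 leading on the NIH-3T3 side. For 5 of the 23 the filter fixed the direction, 3 passing it through NIH-3T3 alone and 2 through MLg alone.

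Of 43 cilium genes, 12 were higher and 8 lower in NIH-3T3 (46.5%), close to the background share, and the median was −0.01. Without NIH-3T3 SHHN replicate 1, 5 were lower, as without MLg SHHN replicate 2, and 4 without MLg SHHN replicate 3. Mks1, of the transition zone, was lower (−1.59), and Ift74 and Bbs2, which carry cargo in cilia, were higher by 1.08 and 1.10. Of 23 cholesterol synthesis genes, 2 were higher and 7 lower under SHHN (39.1%, below the background of 47.2%), and without ligand 9 were higher and 1 lower. The change was called in 3, all downward, where 13.3% of all genes were called. Without NIH-3T3 SHHN replicate 2, 3 genes were lower, and without NIH-3T3 SHHN replicate 3, 4 were higher. Cyp51, an enzyme of the late steps, was among the higher ones (1.51, adjusted p = 2.2e-05). Of 15 fat, bone and cartilage genes, 10 were higher and 4 lower (93.3%). Lpl, the lipoprotein lipase, was at 26.3, 64.2 and 71.9 FPKM in NIH-3T3 SHHN and 1.57, 2.17 and 2.44 FPKM in MLg SHHN (4.31), Ptn, the growth factor pleiotrophin, was higher by 1.91, and Cebpa, a master factor of fat cells, was lower (−3.62).

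**Figure D4:**
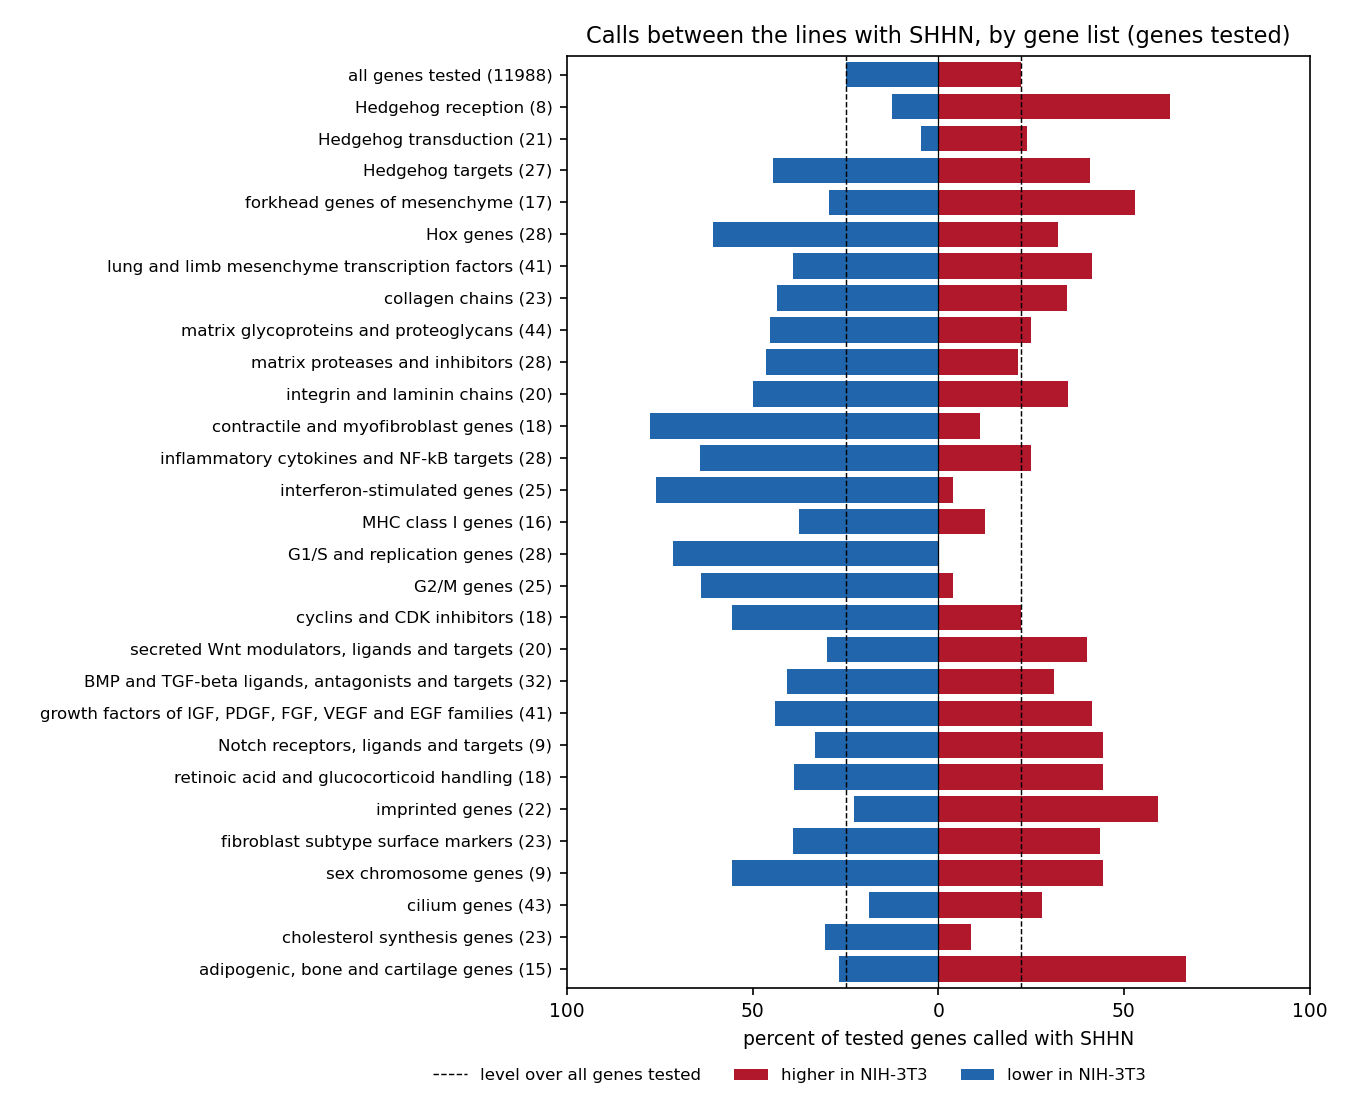
For each gene list, with its number of tested genes in brackets, bars give the percent of tested genes called higher (right) or lower (left) in NIH-3T3 than in MLg under SHHN, and dashed lines mark the 22.3% and 24.9% over all genes. Contractile, interferon-stimulated and cell cycle lists extend mostly to the left.

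Line differences were uneven over chromosomes, beside 22.3% higher and 24.9% lower over all genes tested (47.2% called). Positions in GENCODE M21 (GRCm38) were found for 96.1% of tested genes. On chromosome 4, 348 of 704 tested genes were higher and 133 lower in NIH-3T3 (68.3% called), with a median of 0.42 under SHHN and 0.38 without it. Chromosome 12 (193 higher and 26 lower of 397, median 0.38) and chromosome 16 (177 and 31 of 358, median 0.37) leaned the same way. Chromosome X leaned to MLg, with 27 higher and 189 lower of 383 and a median of −0.42, and so did chromosome 13 (47 and 174 of 430, median −0.34). Chromosomes 9 (60 and 275 of 645), 11 (125 and 368 of 965), 14 (51 and 124 of 387) and 18 (42 and 126 of 309) leaned to MLg as well. Their medians were −0.28, −0.26, −0.21 and −0.30. Chromosomes 8 (181 and 99 of 630, median 0.10) and 17 (146 and 80 of 583, median 0.12) leaned to NIH-3T3. The median without SHHN had the same sign on each of these. Xist, the RNA that silences an X chromosome, was at 127, 118 and 139 FPKM in MLg SHHN and 0.0406, 0.0585 and 0.0801 FPKM in NIH-3T3 SHHN. All 4 tested genes of chromosome Y passed the filter through NIH-3T3 alone and were higher there, with Ddx3y and Eif2s3y at 0 in all MLg SHHN libraries and above 9 FPKM in every NIH-3T3 SHHN library.

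**Figure D5:**
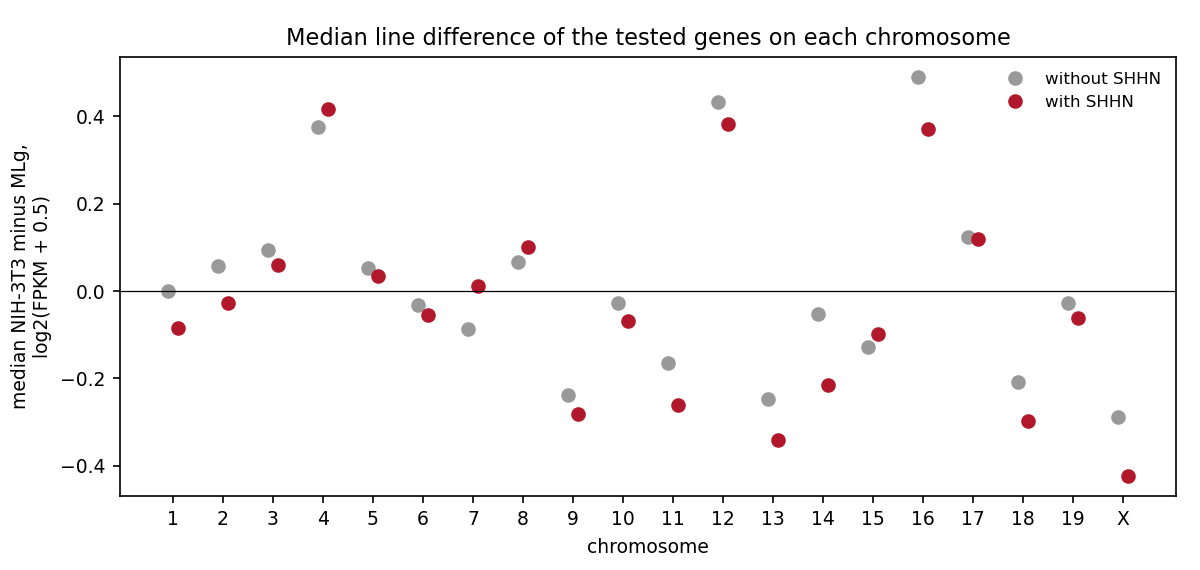
Median NIH-3T3 minus MLg difference in log2(FPKM + 0.5) of the tested genes of each autosome and of chromosome X, without SHHN in grey and with SHHN in red. Chromosomes 4, 12 and 16 lie highest and chromosomes X and 13 lowest, and chromosome Y with 4 tested genes is not drawn.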

How the data were processed

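RNA of 12 samples (2 lines with SHHN or vehicle, 3 libraries per group, grouped by their titles) was extracted with TRIzol, per the labels' protocols. The submitters' processing notes name bcl2fastq, TopHat2 2.0.12 and Cufflinks 2.2.1 with the mouse build mm10, while the annotation and any scaling between libraries are not given in the sources used here. The authors deposited FPKM values per gene, which are fragment counts divided by transcript length and by sequencing depth. The depth itself is unknown: among genes under 0.1 FPKM, 2.20% to 18.6% shared the commonest ratio between a pair of libraries, so whole reads were not recovered. One table entry had no values and was left out.

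Values were used as log2(FPKM + 0.5) in limma 3.58.1 (R 4.3.3), with 1 fit over all 4 groups, so that they share one estimate of the spread, and with moderated tests and Benjamini-Hochberg adjustment over the 11988 genes that reached 0.5 FPKM in 3 or more of the 6 SHHN libraries. Tests were 2-sided at an adjusted p of 0.05. The line difference with SHHN, that without it and the change between them were contrasts of this fit, which was first tested on simulated data. Genes were named by rule: the 12 widest line differences with SHHN on each side, with no overlap of libraries and a mean of 10 FPKM in the higher line, the widest changes among genes that appeared (8 on each side), ended (5 on each side) or turned (8), with 2-fold (not for turned) and 5 FPKM, the Hedgehog and forkhead lists, and 3 genes with the smallest p per other list. Genes outside the rule are marked in the text, and a few that the rule gives are not reported here. The comparison and the 28 lists were chosen with earlier results of these data known. Alternatives were the pseudocount, the filter, 2 other scalings, robust variances, a required 2-fold change, a replicate block, the 6 SHHN libraries alone and leaving out each library. Coordinates are from GENCODE M21 and promoter sequences from RefSeq (GRCm38.p6).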

Additional observations from a re-analysis of the deposited data

Results flagged for a closer look

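For each gene below, the line difference with SHHN and the line difference without it differed by the test of the change itself in the 12-library fit (limma, adjusted p under the threshold), and the value is that change in log2(FPKM + 0.5). The change was called in 13.3% of all genes tested, and both line differences share the same estimate of the spread. When a change beyond 2-fold was required, 33 of the 82 genes passed, and those that did not include Foxd1 (adjusted p = 0.142). Losses of calls given below do not count that requirement.

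Among Hedgehog genes the change was 1.04 for Gli1, 1.38 for Gli2, 1.44 for Smo, 2.55 for Hhat and 0.62 for Kif7. Among targets it was 2.77 for Mycn, 3.70 for Syt13, −2.39 for Nkx3-2, 1.20 for Bmp4, 3.12 for Hes1, −4.97 for Has2 and 1.33 for Ccnd1. For the transcription factors Snai1, Sox9, Osr1 and Osr2 it was −2.96, −1.13, −1.21 and −1.43. The forkhead genes gave −2.47 for Foxd1, 3.34 for Foxd2, 1.06 for Foxc2, 0.96 for Foxo1, −0.80 for Foxp2 and 0.96 for Foxp4. For Kif7 the call was lost in 12 alternatives, among them leaving out NIH-3T3 SHHN replicate 2 (adjusted p = 0.113) and a line-by-number replicate block (adjusted p = 0.0559), and for Foxc2 in 5, among them leaving out that library (adjusted p = 0.0677). Gli1 was lost after quantile normalization and Bmp4 and Foxp2 with a pseudocount of 0.1 (adjusted p = 0.0668, 0.135 and 0.0761).

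Upward changes in other genes that appeared, ended or turned were 3.79 for Lypd2, 3.74 for Ucma, 3.91 for Tspan33, 2.45 for Slc6a6, 2.45 for Antxr1 and 1.72 for Isg15. They were 1.30 for Cdc20, 3.71 for Lrrc8d, 3.03 for Igsf9, 3.33 for Sertad4, 2.21 for Unc5b, 2.37 for Rnf217 and 2.13 for Fam198b. Downward changes were −3.91 for Ngfr, −4.22 for Sprr3, −2.92 for Tnc, −2.99 for C3, −2.84 for Fst and −1.73 for Cdkn1a. They were −3.95 for Cacna1g, −2.64 for Pappa, −2.90 for Ccl5 and −2.34 for Lacc1. The values of Rps27 (−13.95) and Snora81 (−12.17) are uncertain for the reasons given above, and the change of Snora81 was lost in 16 alternatives.

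Among genes whose line difference remained, the change was −3.11 for Agtr2, 0.73 for Thy1, −1.22 for Meg3, 0.54 for Sgce, −2.18 for Tgm2, −0.92 for Loxl2, −1.05 for Lbp and 1.74 for Htra1. Homeobox and T-box genes gave −1.44 for Hoxa6, 0.75 for Hoxb9, 0.60 for Pax3, 1.06 for Tbx4 and 1.03 for Tbx5. Matrix genes gave −3.31 for Col12a1, 1.50 for Col15a1, −1.44 for Postn, −1.78 for Thbs1, −0.80 for Adamts2 and 1.04 for Lamb1. The contractile gene Lmod1 gave −1.41. Signalling genes gave −4.20 for Sfrp2, 2.33 for Grem1, −0.71 for Bmp3, 0.84 for Fgfr1, 1.16 for Vegfc, 0.83 for Cdkn1c and 1.37 for Tsc22d3. Immune and metabolic genes gave −2.34 for Ccl2, −2.59 for Ccl7, 2.92 for Il1rn, −3.26 for Tlr2, 1.03 for Oasl2, −1.96 for Lpl, −1.08 for Ptn and −0.93 for Cyp51. The calls of Sgce, Pax3, Cdkn1c, Cyp51, Hoxa6 and Adamts2 were lost in 5 or more alternatives each, with adjusted p of up to 0.438, 0.184, 0.208, 0.106, 0.0868 and 0.0666. Among these, a line-by-number replicate block gave 0.0734 for Sgce, 0.0782 for Pax3 and 0.0514 for Adamts2. With a pseudocount of 0.1 the changes of Col15a1, Loxl2, Oasl2, Bmp3 and Hoxb9 were lost (adjusted p = 0.128, 0.354, 0.264, 0.119 and 0.157). After quantile normalization those of Ptn and Hoxb9 were lost (adjusted p = 0.273 and 0.0678).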

How the results depend on the processing

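Among 193 genes given by the rule or named in the text, no called line difference changed direction under any alternative run. Of the 158 called with SHHN, 149 were called under every alternative other than a required 2-fold change, against 138 of 145 without SHHN and 75 of 98 for the change. Requiring a difference beyond 2-fold left 463 genes higher and 542 lower with SHHN, 508 and 653 without it, and 43 upward and 61 downward changes, and by kind 755 that remained, 34 that appeared, 29 that ended and 2 that turned. Leaving out 1 library at a time gave 459 to 1212 downward changes, 244 to 633 genes that appeared and 311 to 750 that ended. The lowest of the first pair and 331 genes that ended came without MLg SHHN replicate 3, the highest of all 3 without NIH-3T3 control replicate 2, and the lowest count that ended without MLg control replicate 2. The cause was not tested. All other counts over all genes stayed within 1.5 times their values. Of the 56 counts of called genes by list, the required 2-fold change moved 48 by more, and other alternatives did so 15 times in 5 lists, among them Wnt-related genes, with 13 lower in place of 6 without a filter.

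Same-numbered libraries of the lines under SHHN deviated together only weakly (correlations of −0.02, 0.08 and 0.25 across genes), so the numbers were not taken as pairs. For the control libraries of the lines they were −0.08, 0.48 and 0.44, for NIH-3T3 SHHN with its control −0.01, −0.09 and 0.04, and for MLg SHHN with its control 0.12, 0.20 and 0.23, so every pair was above 0.1 only within MLg. A replicate block gave 2883 genes higher and 3300 lower with SHHN and 1142 upward and 996 downward changes, and a line-by-number block 909 and 738 changes. Of the genes described, the replicate block lost the Hoxa6 difference with SHHN and the Snora81 change (adjusted p = 0.0592 and 0.0664). It passed the control differences of Fst and Gas1 (adjusted p = 0.0431 and 0.00967). The changes of Gas1, Ift74, Mylk and Sufu also passed with it (adjusted p = 0.0168, 0.0358, 0.0351 and 0.0274). The line-by-number block lost the changes of Adamts2, Kif7, Pax3 and Sgce and passed those of Gas1 and Ift74 (adjusted p = 0.0227 and 0.0485). The 6 SHHN libraries alone gave 2993 and 3480. The alternative scalings moved the median line difference by less than 0.1. FPKM without depth gives no interval for single values, and 3 libraries per group set the precision.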

Other observations

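Several of the widest line differences lie outside the gene groups described. Rpl39l, a ribosomal protein gene best known from testis, was at 167, 137 and 206 FPKM in NIH-3T3 SHHN and listed at 0 in all MLg SHHN libraries (8.39, SE 0.19). Isyna1, the first enzyme of inositol synthesis, was at 54.4, 46.9 and 51.4 FPKM in NIH-3T3 SHHN and 0.481, 0.142 and 0.261 FPKM in MLg SHHN (6.04, SE 0.18). Npepl1, an aminopeptidase, was at 0.171, 0.263 and 0.136 FPKM in NIH-3T3 SHHN and 84.1, 82.1 and 75 FPKM in MLg SHHN (−6.88, SE 0.17). The change with SHHN was not called in any of the 3 (adjusted p = 0.725, 0.277 and 0.881).

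Of the tested genes, 304 reached 0.5 FPKM in all 3 NIH-3T3 SHHN libraries and in no MLg SHHN library, and 436 in all 3 MLg SHHN libraries and in no NIH-3T3 SHHN library, so a difference is built into their selection. Lists for which such genes are not counted above held at most 3 of them, the number among matrix proteases and inhibitors. A further 271 genes passed the same filter in the control libraries and not under SHHN, and were not tested.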
